A study of Mus musculus with 12 samples.

Results

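BMAL1 occupancy was examined at the genes of 10 transcription factors of the bHLH-ZIP family in mouse fibroblasts. The genes were Myc, Max, Mxi1, Mxd1, Mxd4, Mnt, Tfeb, Tfe3, Mitf and Usf1, chosen by name as factors known to bind E-boxes, out of 21864 protein-coding genes. A peak was given to one of them when that gene owned the protein-coding transcription start site nearest to the peak's centre. By this rule 91 of 35822 deposited peaks belonged to the 10 genes. The cells were primary mouse adult fibroblasts (MAFs), grown from ears of C57BL6/J mice at low oxygen, with no engineered allele in either group. Control MAFs received sham irradiation and senescent MAFs received 20 Gy of X-rays. Per the paper's methods, irradiated MAFs were then kept in culture for weeks. Both groups were treated with 100 nM dexamethasone, a steroid that brings the clocks of the cells in a dish into step. Collection followed 12 h later, so each group is seen at a single time after synchronization. The peak lists came from 6 BMAL1-ChIP-seq libraries, 3 control and 3 senescent, and the sources used here do not say whether the replicates came from separate animals. The lists hold no expression values, so neither the cell type nor the senescence of the cultures was checked here.

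BMAL1 is a clock activator that binds DNA as a partner of CLOCK, and its binding site is the E-box, the palindrome CACGTG. The bHLH-ZIP factors read the same letters. MYC activates growth genes as a dimer with MAX, and the MXD proteins, MXI1 and MNT compete with MYC for MAX and repress many of the same genes. TFEB, TFE3 and MITF control lysosome and melanocyte genes from a related site, and USF1 is a broadly expressed E-box factor. A peak near one of these genes is a place where BMAL1 was recovered, and it gives no level of the factor itself.

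The lists differed in length within each group, from 2794 to 10601 peaks in control and from 4220 to 9805 in senescent libraries. The number of reads behind each list is unknown, so a gene without a peak was not called at that depth, which does not show that it was unbound. Each peak carried a score, read here as the negative log10 of a q-value, which grows with sequencing depth. Peaks were therefore compared by their rank within their own list, where 1 is the best score. The core clock targets headed the lists, with a geometric mean rank over the 6 libraries of 1.41 for Per1 and Ciart, 3.30 for Per2 and 4.61 for Dbp.

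The E-boxes under the peaks of the bHLH-ZIP genes are shown because they are the letters that BMAL1 and these factors both read. A CACGTG stood in 7 of the 33 regions that the 91 peaks formed once overlapping peaks were merged across libraries, with 8 E-boxes in all. Each is given as 60 bases of the forward strand of GRCm38 (mm10), with the E-box in capitals and its distance from a start site of the gene, negative upstream.
Max promoter, at −47 bp from a start site, chr12:76962219-76962278: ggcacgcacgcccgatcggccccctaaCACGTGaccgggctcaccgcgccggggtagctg
Max promoter, at −322 bp, chr12:76962494-76962553: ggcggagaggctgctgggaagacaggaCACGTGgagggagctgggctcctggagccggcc
Mxd4 promoter, at −206 bp, chr5:34187897-34187956: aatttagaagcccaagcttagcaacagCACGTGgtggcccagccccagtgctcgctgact
Mnt promoter, at −116 bp, chr11:74830774-74830833: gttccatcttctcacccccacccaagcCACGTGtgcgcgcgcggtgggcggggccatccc
Mnt intron, at 1385 bp, chr11:74832275-74832334: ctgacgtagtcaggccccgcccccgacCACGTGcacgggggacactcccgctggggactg
Myc far upstream, in an exon of lincRNA genes, chr15:61536174-61536233: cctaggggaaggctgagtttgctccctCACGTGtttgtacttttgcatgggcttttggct
Myc downstream, in an intron of the lincRNA gene Pvt1, chr15:62079375-62079434: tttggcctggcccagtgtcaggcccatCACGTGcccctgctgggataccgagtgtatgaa
Mitf intron, at −9901 bp, chr6:97981861-97981920: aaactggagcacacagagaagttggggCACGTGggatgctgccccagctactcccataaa
The E-boxes of Max, Mxd4 and Mnt lay in promoters or, for one at Mnt, in the intron that follows. Those of Myc lay about 449 kb upstream and 92.0 kb downstream of the gene's start.

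Of the 10 genes, the 6 that encode MYC, MAX and MAX partners, Myc, Max, Mxi1, Mxd1, Mxd4 and Mnt, had a peak in all 6 libraries, against 0 of the 4 genes Tfeb, Tfe3, Mitf and Usf1. These 6 are not the whole MYC and MAX network. Of its further genes, Mycn and Mycl had no peak in any library, Mxd3 had one in 4, and Mga, which encodes a MAX partner, had one in all 6. Across all protein-coding genes 5.14% had a peak in all 6 libraries, and 36.4% had one in at least 1. Of the 10 genes, 8 had a peak in at least 1 library. A peak within 1000 bp of a start site in every library was found at 4 genes, Max, Mxd1, Mxd4 and Mnt, and at 2.17% of all protein-coding genes. With equal peak numbers in every list, 4 of the 10 genes were called in all 6 libraries, since Mxi1 lost 1 senescent library and Mxd1 was left with 2 control libraries. The 5.14% is from the full lists, and the share of all genes at equal peak numbers was not counted. The genes were chosen with earlier results of these data known, so these counts describe the genes and support no claim about the family.

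**Figure D1:**
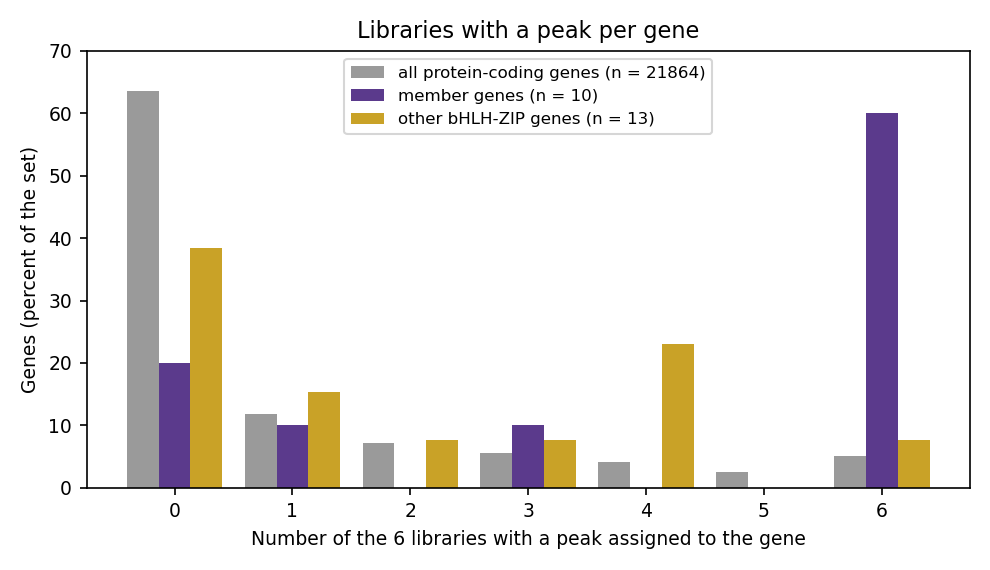
Percent of genes (y axis) by the number of the 6 libraries with a peak given to the gene (x axis), for all 21864 protein-coding genes, the 10 genes described here and 13 other bHLH-ZIP genes. The tall bar at 6 libraries is Myc, Max, Mxi1, Mxd1, Mxd4 and Mnt, against 5.14% of all genes.

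The genes differ in how much DNA lies nearest to them, and a longer stretch gives more room for a peak. The stretch nearest to a Myc start site was 1445 kb, longer than that of 99.2% of coding genes, while that of Usf1 was 15.2 kb. Per Mb of that stretch and per library, Mnt had 58.1 peaks, Mxd1 35.5, Mxi1 18.6, Mxd4 16.8, Max 6.65 and Myc 3.81. Tfeb had 2.15, Mitf 1.47, and Tfe3 and Usf1 had 0, with the value for all genes together at 2.19. Myc, Max, Mxi1, Mxd1, Mxd4 and Mnt thus lay above the density of all genes, with Myc nearest to it, and Tfeb, Tfe3, Mitf and Usf1 lay below it. These values count a region once for each library that called it, and those of Mxd1 and Mxd4 each came from a single region. Max, Mxi1, Mxd1, Mxd4 and Mnt had stretches of 28.2 to 200 kb. With a peak in every library, stretches this short by themselves place a gene above the density of all genes. That density pools all genes, and 63.6% of coding genes had no peak in any library. Tfeb, Tfe3, Mitf and Usf1 had 1, 0, 4 and 0 peaks, too few for a place below it to set them apart.

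**Figure D2:**
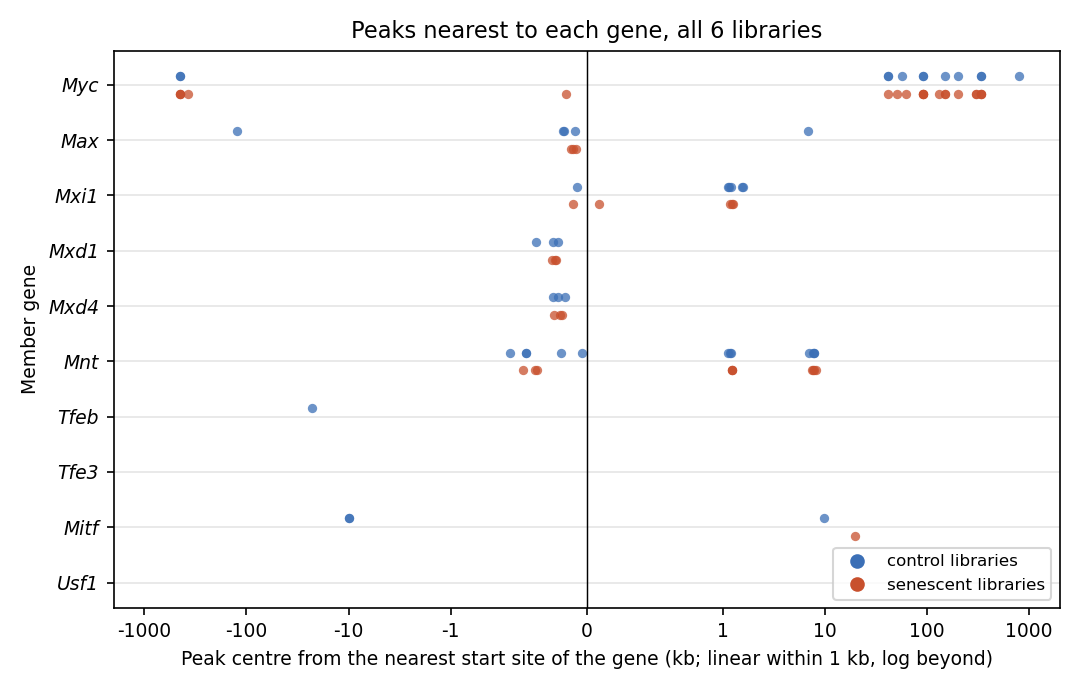
Distance of each peak centre from the nearest start site of its gene in kb (x axis, linear within 1 kb and logarithmic beyond, negative upstream), one row per gene, with control libraries in blue and senescent libraries in red. Max, Mxd1, Mxd4 and Mnt each have peaks within 1 kb upstream of the start site in both groups, Mnt also has a cluster 6971 to 8239 bp downstream, and the peaks of Myc lie 41 kb or more from its start sites apart from 1 senescent peak.

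Mnt, whose protein is a MAX partner that represses MYC target genes, had the best-ranked peaks of the 10 genes. Its best peak ranked 247, 100 and 204 in control replicates 1, 2 and 3 and 183.5, 165 and 169 in senescent replicates 1, 2 and 3. That peak lay 1184 to 1225 bp downstream of the start in control replicates 1 and 3 and senescent replicate 3. In the other libraries it lay 7501 to 7906 bp downstream, so these ranks do not all describe the same site. The senescent ranks lay inside the range of the control ranks. The geometric mean was 171 in control and 172 in senescent libraries, a difference of 0.00 in log10 rank (exact permutation test, two-sided, p = 1, n = 3 per group). Among the 1123 genes with a peak in all 6 libraries, 10.9% ranked better than Mnt. The genes with a pattern of ranks near that of Mnt over the 6 libraries included Fam53b and Wee1, at distances of 0.25 and 0.28 in log10 rank.

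Mnt carried 3 separate regions that were called in every library, all on chromosome 11. The promoter region, chr11:74829866-74831039, holds the E-box shown at −116 bp, which a peak covered in 5 libraries but not in control replicate 1. The region ranked 1277.5, 1568 and 413.5 in control and 392, 582 and 593 in senescent libraries. The ranked peaks of control replicates 1 and 2, centred at −445 and −35 bp, did not overlap, so these ranks do not all describe the same site. Control replicate 3 stood with the senescent libraries and the groups overlapped (geometric means 939 and 513, exact permutation test p = 0.30). The second region, chr11:74831612-74832691, lies in an intron with its best peak centred 1225 bp downstream of the start. It ranked 247, 2168 and 204 in control and 692, 247 and 169 in senescent libraries, again with overlapping groups (exact permutation p = 0.70).

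The third and best-ranked Mnt region, chr11:74837730-74839297, lies 7906 bp into the gene, in an intron, and contains no CACGTG. Its ranks were 268.5, 100 and 216 in control and 183.5, 165 and 172.5 in senescent libraries (geometric means 180 and 174, exact permutation p = 1). Its scores were 20.8, 38.0 and 38.2 in control and 58.7, 72.9 and 57.9 in senescent libraries, each relative to its own list. The stretch shared by the best peak of all 6 libraries, chr11:74838430-74838990, contains neither CACGTG nor the AP-1 site TGACTCA. It is shown because it was the best-ranked region of the 10 genes and lacks the letters of the E-box. The middle 120 bases, chr11:74838650-74838769, read on the forward strand with CACGCG on either strand in capitals:
Mnt intron: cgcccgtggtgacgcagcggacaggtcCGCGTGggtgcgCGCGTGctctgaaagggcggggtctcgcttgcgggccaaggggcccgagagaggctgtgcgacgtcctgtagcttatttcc
The 2 copies of CACGCG, a sequence looked for after the region had been seen, are both on the reverse strand. CACGCG stood in 30.7% of the 1106 regions called in all 6 libraries, so it is common among such regions. The stretch shared by the 6 libraries at the second Mnt region also holds 1 copy, as does that of the Mxi1 region described below.

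Max, the shared partner of MYC, MXD proteins and MNT, had its peak at the promoter in every library. The region, chr12:76962006-76962606, spans both of the Max E-boxes, which lie 269 bases apart, and the E-box at −47 bp was covered by the peak of all 6 libraries. The best peak ranked 847.5, 1096.5 and 785.5 in control and 752.5, 418 and 576.5 in senescent libraries. Every senescent rank was better than every control rank, with geometric means of 900 and 566 and a difference of −0.20 in log10 rank (exact permutation test, two-sided, p = 0.10, the smallest that 3 against 3 libraries can give). Adjusted over the 1123 genes with a peak in all 6 libraries by the Benjamini-Hochberg method, this exact p was 0.265. Senescent libraries were all better at 18.3% of those genes. As a percent of the list's length the ranks were 30.3, 32.7 and 7.41 in control and 17.8, 4.26 and 11.4 in senescent libraries, and on that scale the groups overlapped (exact permutation p = 0.30). The 2 further Max peaks, at 6867 bp and −123415 bp from start sites, were each called in control replicate 3 alone, the library with the longest list.

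Mxi1, which encodes a MAX partner that opposes MYC, had its better ranks in control libraries. Its best peak ranked 296, 648.5 and 635 in control and 1142, 694 and 3009 in senescent libraries. Every control rank was better than every senescent rank, with geometric means of 496 and 1336 and a difference of 0.43 in log10 rank (exact permutation test p = 0.10, adjusted over the 1123 genes 0.265). Control libraries were all better at 19.4% of the 1123 genes. As a percent of the list the ranks were 10.6, 19.4 and 5.99 in control and 27.1, 7.08 and 59.5 in senescent libraries, which overlap (exact permutation p = 0.40).

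The Mxi1 peak called in all 6 libraries, chr19:53313919-53314454, lies in an intron, 1148 bp downstream of an internal start site, and holds no CACGTG. The Mxi1 gene does have E-boxes within 1000 bp of a start site, at −816 and 420 bp, but no peak covered them. The 174-base stretch shared by the 6 best peaks holds 2 copies of CATGTG, an E-box variant, counted on both strands. CATGTG stood in 39.7% of regions called in all 6 libraries. The shared stretch also holds 1 copy of CACGCG, left in lower case in the bases shown. The middle 120 bases are shown as the second region called everywhere without an E-box, chr19:53314249-53314368, forward strand, with CATGTG on either strand in capitals (the other copy lies outside these bases).
Mxi1 intron: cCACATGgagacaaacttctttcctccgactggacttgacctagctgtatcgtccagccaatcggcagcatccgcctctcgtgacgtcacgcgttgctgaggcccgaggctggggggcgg
Near it, chr19:53314500-53314749 was called in control replicates 2 and 3 and in no senescent library. In contrast, chr19:53329461-53329727, at a more distal start site, was called in senescent replicates 1 and 2, at ranks 3071 and 3639.5, and in no control library. Mxi1 therefore had a peak in every library, and the regions beside the shared one differed from library to library.

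Mxd4, another MAX partner of the MXD group, had a promoter peak around the only E-box within 1000 bp of its start sites. The peak, in chr5:34187664-34188235, covered that E-box, at −206 bp, in all 6 libraries. Its ranks were 2150, 2654 and 745.5 in control and 1427, 381.5 and 422 in senescent libraries. Control replicate 3 ranked better than senescent replicate 1, so the groups overlapped (geometric means 1620 and 612, difference −0.42 in log10 rank, exact permutation p = 0.20). The adjusted exact p over the 1123 genes was 0.389.

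Mxd1, which encodes the MXD protein long known as MAD, had the weakest of the peaks called everywhere. They lay in chr6:86669289-86669625, at −370 bp for the best peak, with neither CACGTG nor TGACTCA in the region. The ranks were 2043, 2197.5 and 6794.5 in control and 2853, 2798 and 4943.5 in senescent libraries. The groups overlapped, with geometric means of 3125 and 3405 (exact permutation p = 0.90). Of the 1123 genes with a peak in all 6 libraries, 99.6% ranked better than Mxd1.

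**Figure D3:**
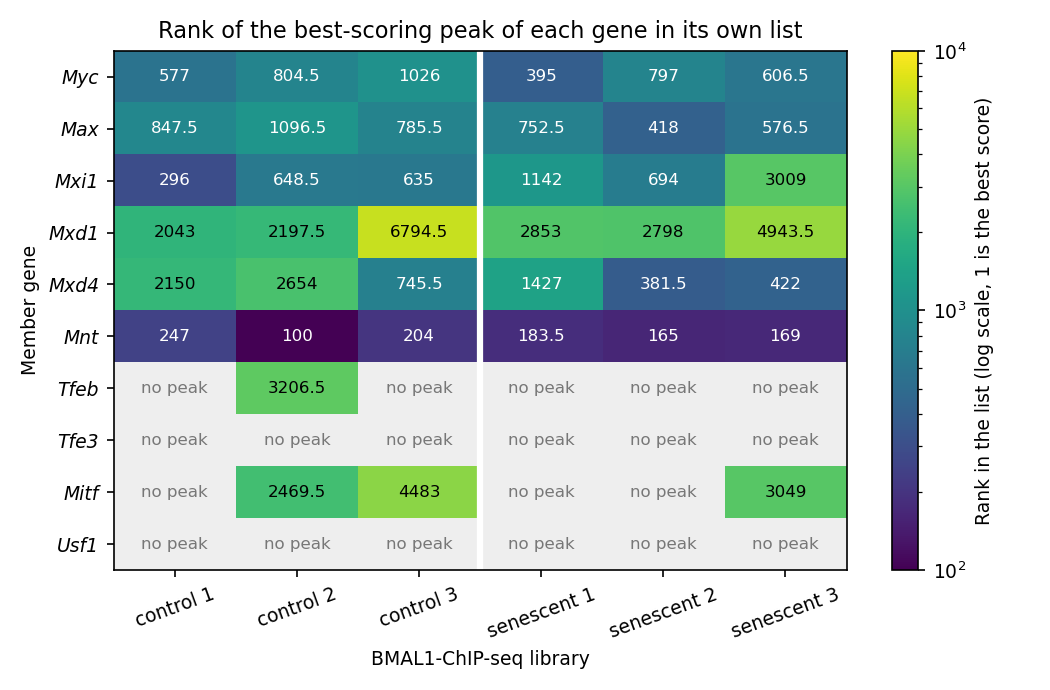
Rank of the best peak of each gene (rows) in each of the 6 libraries (columns), with colour on a log scale and grey for a gene without a peak. Mnt is the darkest row, between 100 and 247, and Tfe3 and Usf1 are grey throughout.

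Myc had 33 of the 91 peaks, but unlike Max, Mxd1, Mxd4 and Mnt it had almost none near the gene. The 33 peaks formed 17 regions, of which 12 were called in a single library, and no region was called in all 6. The only peak close to a start site, at −151 bp, was called in senescent replicate 2 alone, at rank 8549 of 9805. The best peak ranked 577, 804.5 and 1026 in control and 395, 797 and 606.5 in senescent libraries, with overlapping groups (geometric means 781 and 576, difference −0.13 in log10 rank, exact permutation p = 0.40).

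These Myc ranks came from 2 distant regions, both of which hold an E-box shown above. The upstream one, chr15:61535637-61536510, is about 449 kb from the start site and overlaps exons of the lincRNA genes D030024E09Rik and Gm49498. It was called in every library except control replicate 1, at ranks 804.5 and 1154.5 in control and 395, 957.5 and 1126 in senescent libraries. The downstream one, chr15:62079228-62079886, is about 92.0 kb from the start site, in an intron of Pvt1, a lincRNA gene beside Myc. It also holds 3 copies of TGACTCA and was called in every library except control replicate 2, at ranks 577 and 1026 in control and 1277, 797 and 606.5 in senescent libraries. A further Pvt1 intron region, chr15:62328295-62328865, with 2 copies of TGACTCA and no CACGTG, was called in 4 libraries. It ranked 4600.5 in control replicate 3 and 4059, 1903.5 and 1136 in senescent replicates 1 to 3.

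The link from these peaks to Myc is by distance alone. When start sites of genes of every type were used, lincRNA genes included, only 1 of the 33 peaks stayed with Myc. Of the 10 genes, 5 in place of 6 then had a peak in all 6 libraries, and the share of all genes was not counted. Within 50 kb of a start site, Myc had a peak in 2 control libraries and 1 senescent library.

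The lysosomal and melanocyte regulators and Usf1 were rarely called. Tfeb, a master regulator of lysosome genes, had 1 peak, in an intron at −22613 bp, in control replicate 2 at rank 3206.5. Tfeb has E-boxes at −981 and 666 bp from start sites, with no peak over them. Mitf, the melanocyte regulator, had 4 peaks in 3 regions, all in introns, with best ranks of 2469.5 in control replicate 2, 4483 in control replicate 3 and 3049 in senescent replicate 3. The Mitf region with the E-box shown, chr6:97981730-97982143, was called in control replicates 2 and 3 and in no senescent library.

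Tfe3 and Usf1 had no peak in any list. Tfe3, a relative of Tfeb on chromosome X, had its nearest peaks 114 to 117 kb away, assigned to Syp or Prickle3. Peaks were sparse on that chromosome, with 7.59% of its 948 coding genes having a peak in at least 1 library. Usf1 had its nearest peak 65.1 kb away, nearest to Pfdn2, in all 6 libraries. A count of 0 in these lists sets no upper limit on binding, since they hold only peaks past the caller's threshold.

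A CACGTG within 100 bp of the centre was present in 21 of the 91 peaks, 23.1%, against 24.4% of all peaks. By library the share of the genes' peaks was 27.3, 41.7 and 13.6% in control and 27.3, 18.2 and 23.1% in senescent libraries, from 11 to 22 peaks each. The means were 27.5% ± 14.0 and 22.8% ± 4.55 (SD, n = 3 each, exact permutation p = 0.80). For all peaks the shares were 30.8, 23.9 and 13.6% in control and 40.0, 23.2 and 33.3% in senescent libraries. TGACTCA, the AP-1 site, was in 16 of the 91 peaks, 17.6%, against 15.0% of all, and CATGTG was in 29.7% against 19.1%. These shares count a region once for each library that called it. The 5 regions with TGACTCA inside them were all assigned to Myc, by distance alone, and no region of the other genes held it.

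Of the 7 regions called in all 6 libraries, 4 held a CACGTG, against 61.6% of all 1106 such regions, and 0 of the 7 held TGACTCA, against 22.3%. Both regions called in 5 libraries held a CACGTG, against 49.9% of all such regions. The Mitf region was the 1 of the 24 regions called in fewer libraries that held one, against 15.6% of all such regions. The regions called in all 6 libraries were also wider, at 337 to 1568 bp against 103 to 746 bp for the 24, and the part of width in these counts was not tested. In the genome at large, an E-box within 1000 bp of a start site was present for 5 of the 10 genes, Max, Mxi1, Mxd4, Mnt and Tfeb, and for 32.2% of coding genes. In the 300-base promoters of RefSeq, which matched 9 of the 10 genes by symbol, a CACGTG stood in 3 of their 17 promoters, those of Max, Mxd4 and Mnt, against 7.15% of all 32851 promoters.

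**Figure D4:**
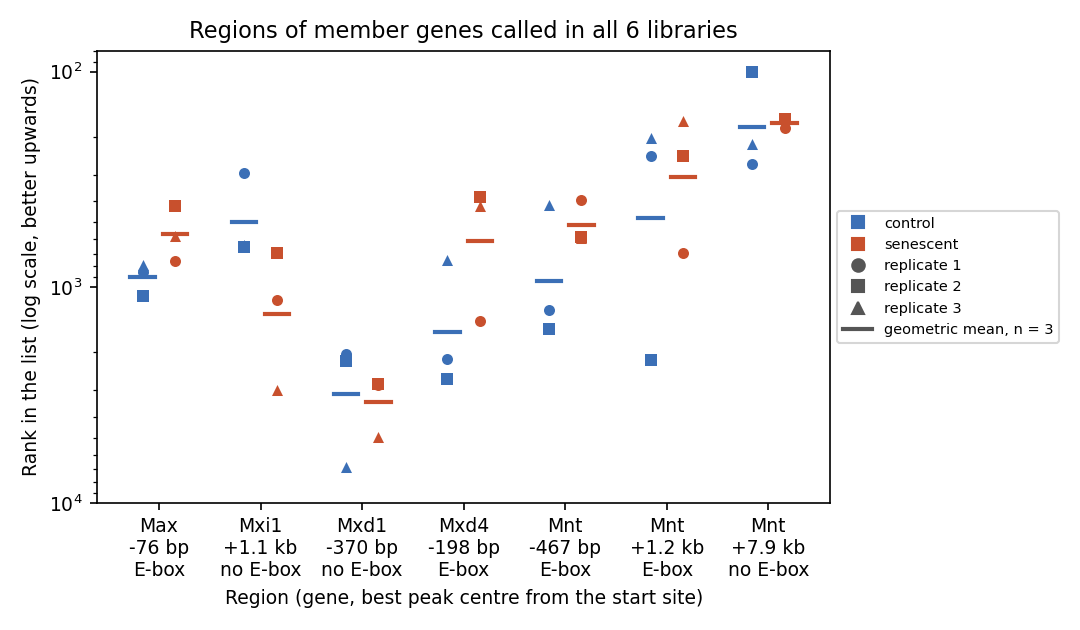
Rank of the 7 regions called in all 6 libraries (x axis, named by gene, distance of the best peak from the start site and presence of an E-box) in control and senescent libraries (y axis, log scale, better ranks upwards), one symbol per replicate and bars for geometric means, n = 3 per group. The groups separate at Max, where senescent ranks are better, and at Mxi1, where control ranks are better, and overlap at the other 5 regions.

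Senescent and control MAFs were compared over the 10 genes together by counts per library. Peaks numbered 11, 12 and 22 in control and 11, 22 and 13 in senescent libraries (15 ± 6.08 and 15.3 ± 5.86, SD, n = 3 each, exact permutation p = 1). The highest count in each group came from its longest list. Without Myc the counts were 8, 11 and 14 in control and 8, 9 and 8 in senescent libraries (exact permutation p = 0.40). The genes with a peak numbered 6, 8 and 7 in control and 6, 6 and 7 in senescent libraries (7 ± 1 and 6.33 ± 0.577, exact permutation p = 0.70). Those with a peak within 1000 bp of a start site numbered 4, 4 and 5 in control and 5, 6 and 4 in senescent libraries (4.33 ± 0.577 and 5 ± 1, exact permutation p = 0.70). In each of these counts the groups differed by less than the spread between replicates or overlapped, and with 3 libraries a group no exact test could reach 0.05.

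None of the 10 genes had peaks in 2 or more senescent libraries and 0 control libraries, or the reverse. Without senescent replicate 3, Mitf would have counted as the reverse case. Across all protein-coding genes 3.42% were called so in senescent libraries and 1.64% in control libraries. Among the 7 regions called in all 6 libraries, 1 had better ranks in every senescent library, at Max, and 1 in every control library, at Mxi1, against 17.6% and 18.4% of the 1106 such regions. Of the 33 regions, 2 were called in at least 2 senescent and 0 control libraries, at Mxi1 and in a Pvt1 intron, against 9.44% of all 16818 regions. The reverse held for 2 of the 33, at Mxi1 and Mitf, against 5.86%. For all peaks, the share within 1000 bp of a start site was 31.6 to 32.9% in control and 39.9 to 45.0% in senescent libraries, and its part in the ranks of promoter peaks such as those of Max was not tested.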

How the data were processed

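BMAL1 chromatin was profiled by TAF-ChIP-seq in 3 control and 3 senescent MAF cultures, and 6 input libraries were not analysed here. Per the methods and labels, the authors aligned reads to mm10 with BWA, kept pairs with at least 1 uniquely mapped end, marked duplicates with Picard and called peaks in each library with MACS2 at an FDR of 1% or less, without pooling replicates. The MACS2 version and the use of input as control are not given in the sources used here. The labels and the methods name different suppliers of the BMAL1 antibody. All 6 libraries came from 1 sequencing lane. The deposited score is read as a −log10 q-value, inferred from lowest values of 2.02 to 2.12. It is not normalized between libraries, and depth is unknown.

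Peak centres were assigned to the nearest protein-coding start site of GENCODE M21, since the lists hold no summits. Regions merged peaks overlapping by at least 1 bp. Motifs were searched on both strands of GRCm38. Tied scores shared a mean rank. Groups were compared by exact two-sided permutation tests over 20 arrangements (smallest p 0.1), with Benjamini-Hochberg adjustment over all genes with a peak in all 6 libraries. The scripts used Python 3.11.15, numpy 2.4.6, pandas 2.3.3 and matplotlib 3.10.9 and were tested on simulated data. P-values measure the spread between these libraries, which may be technical. The members and lists were chosen with earlier results of these data known. The genes named were the 10 members, other bHLH-ZIP genes called in at least 4 libraries, clock reference targets and the 3 genes nearest in rank pattern to the best-ranked member, of which 1 is not reported here. Neighbours of genes without a peak, lincRNA hosts, Mycn, Mycl and Usf3 were named after their values were seen. Alternatives were equal list lengths, peaks above the median score, other distances and E-box windows, start sites of every gene type, ranks as a percent of the list, a replicate block and leaving out each library.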

Additional observations from a re-analysis of the deposited data

How the results depend on the processing

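Of 79 alternative values for the summary counts, shares and differences, 64 kept their direction or size, 12 changed direction and 3 moved. No p was under 0.05 under any, which this design cannot reach. With equal peak numbers in every list, the senescent minus control difference was −1.67 for peaks, −0.667 for genes with a promoter peak and 6.68 percentage points for the E-box share. Under that setting 4 in place of 6 genes were called in all 6 libraries, a change counted among the 64, and 1 gene, Mxd1, was called in control libraries only. With only peaks above each list's median score, 3 genes (Myc, Max, Mnt) were called in all 6 libraries, the difference in genes with a peak was 0.333 and that in E-box share was 4.21. The share of all genes called in all 6 libraries was not counted under either setting. The peak difference was −2 with start sites of every gene type and −2.33 within 50 kb. The E-box difference was 3.26 when an E-box anywhere in the peak counted. Leaving out 1 library at a time gave −3 (without senescent replicate 2) to 3.83 (without control replicate 3) for peaks, with −1.67 without control replicate 1 and −1.17 without control replicate 2. It gave −11.6 to 2.39 for the E-box share, the latter without control replicate 2, and 0 to 1 for genes in control libraries only, the 1 being Mitf without senescent replicate 3. The log10 rank difference of Mxd1, 0.04, was −0.07 as a percent of the list and −0.05 to 0.21 with 1 library left out (−0.05 without control replicate 1, 0.21 without control replicate 3, and −0.04 without control replicate 2 or senescent replicate 3). Same-number libraries had correlations of 0.22, −0.20 and −0.15 over 7949 genes. Control replicate 1 correlated best with its own number, and control replicates 2 and 3 with another (0.18 and 0.27). The 0.27 joined the longest list of each group, 10601 and 9805 peaks. These correlations cannot show whether libraries of the same number shared an animal or a batch. A replicate block alters only the test and cannot alter a difference, for example −0.667 for genes with a peak (exact sign-flip permutation p = 1, smallest possible 0.25). Its differences are counted among the 64. So are the group-only counts of 0 when all 3 libraries of a group were required, which could not rise. The cause of the changes under the other alternatives was not tested.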

Other observations

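Of 13 other bHLH-ZIP genes, 8 had a peak in at least 1 library, against 36.4% of all protein-coding genes. Against 5.14% of all protein-coding genes, 1 of the 13 (7.69%) had a peak in all 6. That gene was Mga, which encodes a large MAX partner. Its best peak ranked 2761, 1690 and 2082 in control and 728.5, 424 and 1267 in senescent libraries. Every senescent rank was better, with geometric means of 2134 and 731 and a log10 difference of −0.46 (exact permutation p = 0.10, adjusted over the 1123 genes 0.265). Senescent libraries were all better at 18.3% of those genes. As a percent of the list the Mga ranks were 98.8, 50.5 and 19.6 in control and 17.3, 4.32 and 25.1 in senescent libraries, which overlap.

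Mxd3, Srebf2 and Tfap4 had a peak in 4 libraries, as did 4.11% of all protein-coding genes. Mxd3, a further MXD repressor, was called in 1 control library, at rank 6418, and in all 3 senescent libraries, at 467, 1064.5 and 569.5. Tfap4, which encodes AP-4, ranked 3645.5 in control replicate 3 and 2798, 3528 and 1929 in senescent libraries. Srebf2, a regulator of cholesterol synthesis, ranked 1272.5 and 1886.5 in control replicates 2 and 3 and 2983.5 and 2990 in senescent replicates 2 and 3. Usf3 was called at its promoter in control replicates 1 and 2, at ranks 1426 and 1282.5, and in no senescent library. Peaks in at least 2 control and 0 senescent libraries were thus found at 1 of the 13 genes, against 1.64% of all protein-coding genes.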
